A study of Mus musculus with 4 samples.

Results

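This account follows 9 long noncoding RNA genes of mouse cells, chosen by name from the 24346 gene symbols of the series: the small nucleolar RNA (snoRNA) host genes Gas5, Snhg1, Snhg3, Snhg5, Snhg6, Snhg8 and Snhg12, and the nuclear RNAs Malat1 and Neat1. They were measured by RNA sequencing in 2 libraries of MC38 cells labelled as a knockout (KO) of Arid5a, and in 2 libraries of MC38 cells labelled wild type (WT). MC38 is a mouse colon carcinoma line, whose tumours the labels describe as rich in immunosuppressive cells and poor in T cells. Arid5a encodes an RNA-binding protein known to stabilise certain cytokine mRNAs. The labels give no treatment or time point, and do not say how the KO was made, which stretch of Arid5a was deleted, whether the KO cells were 1 clone, or whether the replicates were separate cultures. The p-values below therefore measure only the spread between these libraries, which may be technical. KPC cells, which the series design also names, were not analysed here.

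Arid5a went against the labels. Levels are given in FPKM, fragments scaled to transcript length and to sequencing depth. Arid5a had 2.16 and 1.77 FPKM in the libraries labelled KO, against 0.225 and 0.124 FPKM in those labelled WT. The ratio of the mean FPKM was 11.3. On the log2(FPKM + 1) scale, which understates changes at such low levels, the log2 change was 1.33 ± 0.13 (SE, adjusted p = 0.00130, limma). Every direction below is therefore a direction between labels. Since the deleted stretch is not given, this gene does not settle which cells carried the deletion. Epithelial markers were near 0 in MC38: none of 7 reached a mean of 1 FPKM, Epcam and Cdx2 were listed at 0 in all libraries, and the list summed to 0.646 to 0.689 FPKM under the KO label and 0.544 to 0.998 FPKM under the WT label. All 4 mesenchymal markers reached a mean of 1 FPKM over the libraries, Col1a1 only through those labelled KO. The 4 summed to 1357 and 1361 FPKM in the libraries labelled KO, against 1629 and 1609 FPKM in those labelled WT, most of it Vim. Vim and Fn1 were lower under the KO label, while Sparc was higher (97.5 and 95.2 FPKM under the KO label, 86.0 and 86.5 FPKM under the WT label), as was Col1a1 (2.14 and 1.95 FPKM under the KO label, 0.275 and 0.246 FPKM under the WT label). Leukocyte markers summed to 0.270 to 0.625 FPKM under the KO label and 0.908 to 1.31 FPKM under the WT label, with Cd3e, Itgam and Adgre1 at 0 throughout. The 3 endothelial markers summed to 0.832 to 0.904 FPKM under the KO label and 0.450 to 0.537 FPKM under the WT label, with Kdr at 0. The part of these differences in the results below was not tested. In bulk RNA, fewer cells of a type and less RNA per cell cannot be told apart. Depth was estimated from the low values as 10300000 and 11400000 fragments in the libraries labelled KO, against 15400000 and 11800000 in those labelled WT.

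A snoRNA host gene carries snoRNAs in its introns. The snoRNAs are cut out of the spliced-out introns and guide the chemical modification of ribosomal and other RNAs, box C/D snoRNAs (Snord genes) directing methylation and box H/ACA snoRNAs (Snora genes) pseudouridylation. The spliced exons that remain are what a poly(A) library counts, and in many hosts they are short-lived, being degraded by nonsense-mediated decay during translation. Many hosts, like ribosomal protein genes, start at a 5′ terminal oligopyrimidine (TOP) tract, a C followed by pyrimidines. Neat1 is the scaffold of paraspeckles, nuclear bodies that hold proteins and edited RNAs; it has a short polyadenylated and a long form without a poly(A) tail. Malat1 lies in nuclear speckles, the storage sites of splicing factors, and its 3′ end is made by RNase P, which releases a tRNA-like RNA (mascRNA) and leaves an end without a poly(A) tail. The library kit named in the labels selects poly(A) RNA, so the long form of Neat1 and the end-processed Malat1 are not its usual targets, and this bears on the measured level of both genes in every library.

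The sequences below show how the hosts differ around the start that RefSeq annotates. For Snhg1, Snhg5, Snhg8, Snhg12 and both starts of Gas5, the RefSeq start is not the gene end given by GENCODE M21. Whether a tract is found therefore depends on the annotation, and the first base of the transcripts was not measured here. RefSeq promoters (build GRCm38.p6) were matched for Gas5 (2 start sites), Snhg1, Snhg3, Snhg5, Snhg8, Snhg12 and Malat1, and not for Snhg6 or Neat1. Each line below runs 5′ to 3′ from 20 bases before the annotated start over 70 bases in all, and capitals mark a TOP tract, counted as a C followed by at least 4 bases that are each C or T and beginning within 5 bases of the start on the strand of the gene.
Gas5 second start, chr1:161035146-161035215, plus strand: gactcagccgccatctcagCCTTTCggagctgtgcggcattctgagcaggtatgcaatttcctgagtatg
Snhg8, chr3:123508287-123508356, minus strand: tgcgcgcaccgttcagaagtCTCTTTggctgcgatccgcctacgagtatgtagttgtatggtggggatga
Snhg12, chr4:132308658-132308727, plus strand: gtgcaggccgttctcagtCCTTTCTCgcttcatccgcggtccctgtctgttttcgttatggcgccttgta
Snhg3, chr4:132353637-132353706, minus strand: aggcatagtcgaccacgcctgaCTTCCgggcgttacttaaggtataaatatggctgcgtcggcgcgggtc
Snhg1, chr19:8723467-8723536, plus strand: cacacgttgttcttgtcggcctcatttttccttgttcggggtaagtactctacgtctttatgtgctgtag
The tract CCTTTC begins 1 base before the second Gas5 start, CTCTTT on the Snhg8 start itself, CCTTTCTC 2 bases before that of Snhg12 and CTTCC 2 bases after that of Snhg3. No such tract was found at the first Gas5 start or at those of Snhg1, Snhg5 and Malat1. The Snhg5 window does hold CTTTT further downstream, beyond the reach of 5 bases. Of all 32817 RefSeq mouse promoters, 18.3% hold one. The hosts with a tract include 1 gene that rose (Gas5), 1 that fell (Snhg3) and both that were not called (Snhg8 and Snhg12), so their changes had no direction in common. In windows from 250 bases before to 50 bases after the start, read on both strands, TATAAA was found at Snhg1, Snhg3, Snhg5 and Snhg8 (13.6% of all promoters) and CCAAT at Snhg3, Snhg5 and Snhg8 (37.4%). Counted from the start, TATAAA began at -23 in Snhg5 and -30 in Snhg8, on the strand of the gene. In Snhg3 it began at 22, past the start, and in Snhg1 it lay at -29 on the opposite strand. The E-box CACGTG (7.15% of all promoters) and the composite stress element TGATGNAA (3.97%) had no match in these windows of the listed genes. These are matches of letters and not sites of binding.

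Between the labels, Neat1 was the RNA that differed most in fold, at 3.47 times the mean level in the libraries labelled KO, and Snhg3 was the single gene that fell, to 0.469 times. Gas5, Snhg1, Snhg5, Snhg6 and Malat1 rose by 1.17 to 1.64 times, and Snhg8 and Snhg12 did not pass the test. Thus 6 of the 9 genes were higher and 1 was lower in the libraries labelled KO, by limma on log2(FPKM + 1) at an adjusted p under 0.05. Of the 10827 genes tested, 47.6% were called in that fit, 24.4% higher and 23.3% lower, so that calls in either direction were frequent in these libraries. All 9 genes passed the filter of a mean of 1 FPKM. Groups did not overlap for 8 of the 9 genes, 7 of them higher under the KO label, beside 77.5% of all genes tested (39.4% higher, 38.2% lower). The median log2 change was 0.32 over the 9 genes and 0.0056 over all genes tested, and the middle 90% of genes lay between -0.58 and 0.54.

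**Figure D1:**
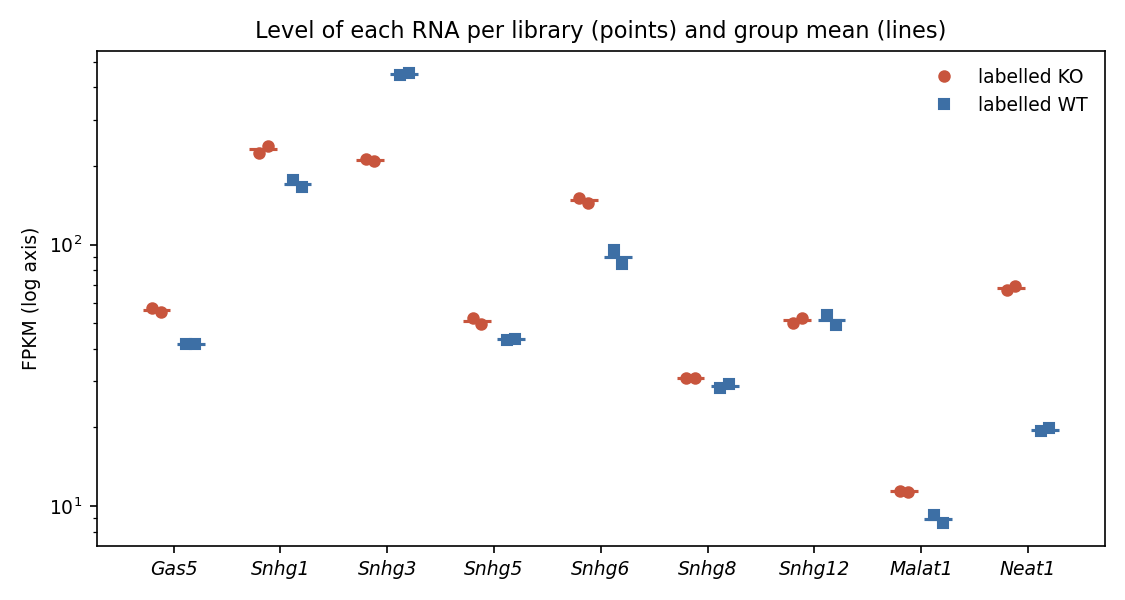
FPKM of the 9 genes (log axis) in each library, with points for single libraries, lines for group means, and the libraries labelled KO left of those labelled WT. Neat1 lies at 67.0 and 69.2 FPKM under the KO label and 19.4 and 19.9 FPKM under the WT label, Snhg3 at 212 and 208 FPKM under the KO label and 444 and 452 FPKM under the WT label, and the points of Snhg12 overlap between the labels.

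Gas5, Snhg1, Snhg5 and Snhg6 carry box C/D snoRNAs, and all 4 rose. Gas5, first found as a growth arrest-specific transcript and in human cells also known to bind the glucocorticoid receptor, is at chr1:161034422-161038539 on the plus strand (GRCm38, GENCODE M21). Gas5 had 57.0 and 55.3 FPKM in the libraries labelled KO, against 41.7 and 41.5 FPKM in those labelled WT. Both libraries labelled KO were above both labelled WT. The log2 change was 0.42 ± 0.034 (SE, adjusted p = 0.000799, limma). Zbtb37 overlaps the first bases of Gas5 on the opposite strand, but its level was low, at 1.64 and 1.74 FPKM in the libraries labelled KO and 1.58 and 1.85 FPKM in those labelled WT.

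Snhg1 is at chr19:8723475-8726443 on the plus strand and hosts a run of box C/D snoRNAs. Its level was 225 and 238 FPKM in the libraries labelled KO, against 176 and 166 FPKM in those labelled WT, with no overlap. The log2 change was 0.43 ± 0.044 (SE, adjusted p = 0.00153, limma). Snhg1 was the highest of the 9 genes under the KO label and the second highest, after Snhg3, under the WT label.

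Snhg6 (chr1:9941959-9944118, minus strand), the host of Snord87, showed the largest rise in fold among the hosts, while Snhg1 rose slightly more in FPKM (60.4 for Snhg1, 57.8 for Snhg6). Its values were 150 and 145 FPKM under the KO label, against 95.2 and 84.5 FPKM under the WT label. The lowest library labelled KO was far above the highest labelled WT, and the log2 change was 0.71 ± 0.061 (SE, adjusted p = 0.000962, limma). The end of Snhg6 lies under Mcmdc2, which is on the opposite strand and stayed under 0.5 FPKM in every library.

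Snhg5 (chr9:88521050-88522929, minus strand), the host of Snord50a and Snord50b, changed least of the 4. The libraries labelled KO had 52.3 and 49.7 FPKM, against 43.2 and 43.7 FPKM in those labelled WT. The groups were apart, with a log2 change of 0.23 ± 0.039 (SE, adjusted p = 0.00800, limma). A stretch of 233 bases is 96.1% identical to the noncoding gene 9330159M07Rik and 95.7% identical to 9430037G07Rik, so reads there may be shared, although neither gene exceeded 2.28 FPKM in any library.

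Snhg3 and Snhg8 carry box H/ACA snoRNAs, Snhg12 carries both classes, and none of the 3 was called higher. This grouping by class was made after the values were seen, and other hosts that could be classed did not repeat it. Snhg3 (chr4:132348014-132353686, minus strand) hosts Snora73a and Snora73b. Snhg3 had 212 and 208 FPKM in the libraries labelled KO, against 444 and 452 FPKM in those labelled WT, or 210 ± 2.42 FPKM under the KO label and 448 ± 5.54 FPKM under the WT label (mean ± SD, n = 2 each). This was the widest separation in FPKM of the 9 genes, and the log2 change was -1.09 ± 0.026 (SE, adjusted p = 3.78e-05, limma). It was the 181st largest fall among the 10827 genes tested. Snhg3 was the highest of the 9 genes under the WT label, above 98.3% of genes tested, and second under the KO label, above 95.9%.

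Snhg8 (chr3:123507552-123508404, minus strand) hosts Snora24. Its level was 30.8 and 30.9 FPKM in the libraries labelled KO, against 28.4 and 29.4 FPKM in those labelled WT. The groups did not overlap, but the log2 change of 0.09 ± 0.038 (SE) had a 95% interval of -0.0052 to 0.19 and did not pass the test (adjusted p = 0.103, limma).

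Snhg12 (chr4:132308623-132311024, plus strand) hosts Snora16a, Snora44, Snora61 and Snord99. Snhg12 had 50.3 and 52.6 FPKM under the KO label, against 53.8 and 49.3 FPKM under the WT label, so the groups overlapped. The log2 change was -0.0015 ± 0.053 (SE, adjusted p = 0.982, limma), with a 95% interval of -0.14 to 0.13. This gene and Snhg3 lie 36990 bases apart on chromosome 4, on opposite strands, and the Snhg3 to Snhg12 ratio was 4.21 and 3.96 in the libraries labelled KO, against 8.25 and 9.17 in those labelled WT.

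**Figure D2:**
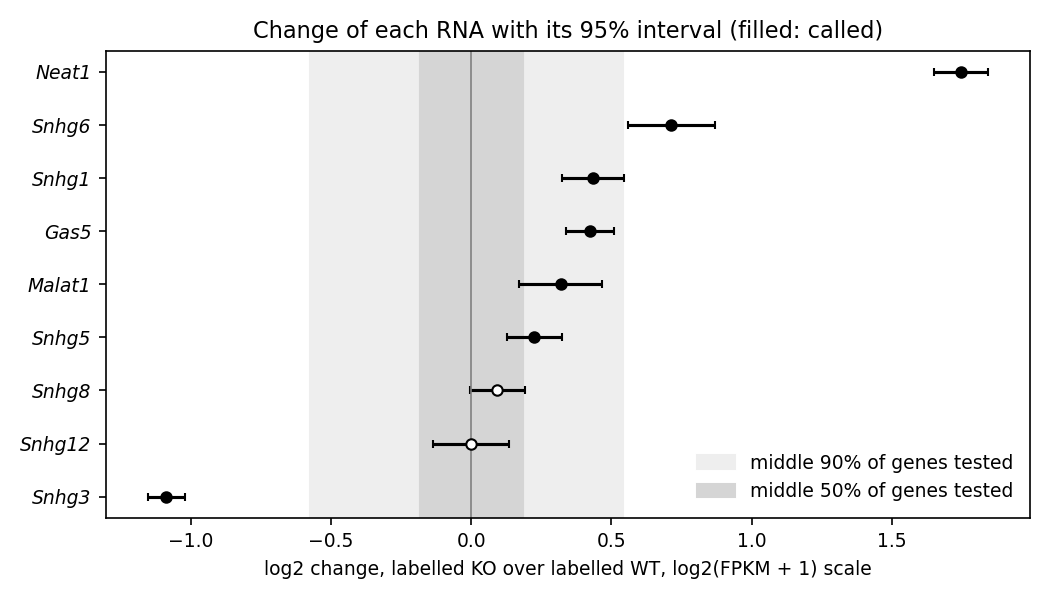
Log2 change of each of the 9 genes, labelled KO over labelled WT, on the log2(FPKM + 1) scale, with bars for the 95% interval, filled points for called genes and grey bands for the middle 50% and 90% of all genes tested. Neat1 at 1.75 and Snhg3 at -1.09 lie far outside both bands, Snhg6 at 0.71 lies just above the wider band, and the intervals of Snhg8 and Snhg12 include 0.

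The makeup of the summed host RNA differed more than its total. The 7 host genes summed to 777 and 780 FPKM in the libraries labelled KO, against 882 and 866 FPKM in those labelled WT. Snhg3 made up 27.3% and 26.7% of that sum under the KO label, against 50.3% and 52.1% under the WT label. Without Snhg3 the order turned, with sums of 565 and 571 FPKM in the libraries labelled KO and 438 and 414 FPKM in those labelled WT. FPKM is per transcript length, so a long host does not weigh more in these sums for its length.

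**Figure D3:**
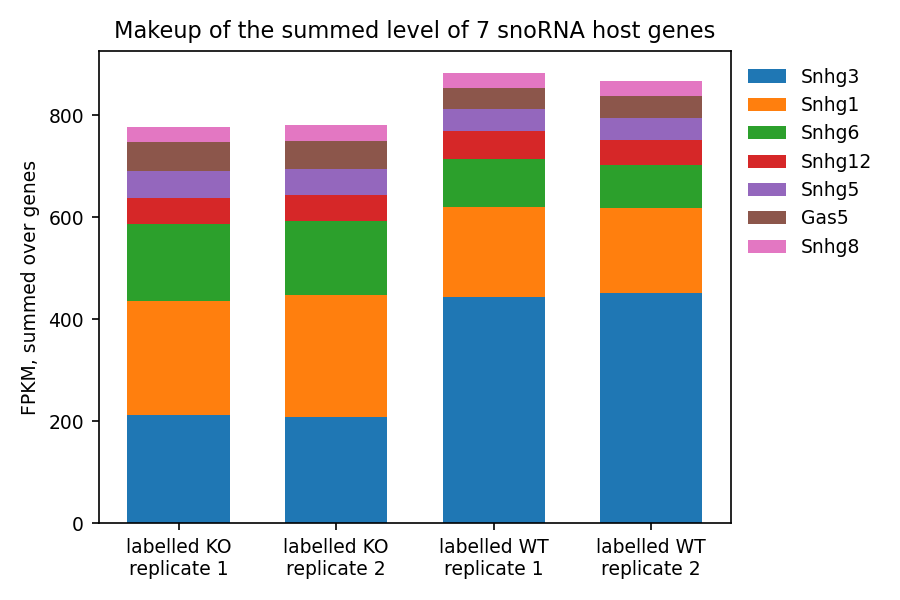
Stacked FPKM of the 7 snoRNA host genes in each library, those labelled KO on the left, with 1 colour for each gene. The bars reach 777 and 780 FPKM under the KO label and 882 and 866 FPKM under the WT label, and the Snhg3 segment takes 27.3% and 26.7% of the bar under the KO label and 50.3% and 52.1% under the WT label.

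Neat1 is at chr19:5824708-5845478 on the minus strand, with annotated transcripts of 711 to 20771 bases. Neat1 had 67.0 and 69.2 FPKM in the libraries labelled KO, against 19.4 and 19.9 FPKM in those labelled WT, or 68.1 ± 1.56 FPKM under the KO label and 19.6 ± 0.356 FPKM under the WT label (mean ± SD, n = 2 each). Both libraries of each label were close together and the groups were wide apart. The log2 change was 1.75 ± 0.038 (SE, adjusted p = 3.46e-05, limma), the 46th largest rise among the 10827 genes tested. Neat1 stood above 86.5% of tested genes under the KO label and above 58.4% under the WT label. The FPKM is 1 value for the gene, so the short and the long form were not told apart.

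Malat1 is at chr19:5795690-5802672 on the minus strand, 22036 bases from Neat1. Malat1 had 11.5 and 11.3 FPKM in the libraries labelled KO, against 9.26 and 8.62 FPKM in those labelled WT. The groups did not overlap, and the log2 change was 0.32 ± 0.059 (SE, adjusted p = 0.00937, limma). Without WT replicate 2 the change was 0.27 and was no longer called (adjusted p = 0.0532, limma). Malat1 had the lowest FPKM of the 9 genes under both labels, above 43.1% of tested genes under the KO label and 36.1% under the WT label. The 60 bases of Malat1 before mascRNA are shown because they include the A-rich tract at its 3′ end, which the end-processed RNA has in place of a poly(A) tail; capitals mark runs of at least 4 A (GENCODE M21 transcript, GRCm38, with the mascRNA position from RefSeq).
Malat1, chr19:5795982-5796041, minus strand: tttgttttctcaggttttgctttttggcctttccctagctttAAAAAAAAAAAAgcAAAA
The longest run is 12 A, and 18 of the 60 bases are A. The Neat1 to Malat1 ratio, which does not depend on the scaling between libraries, was 5.84 and 6.12 in the libraries labelled KO, against 2.09 and 2.31 in those labelled WT.

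The order of the 9 levels differed between the labels. Under the KO label it ran from Snhg1 (231 FPKM) through Snhg3 (210), Snhg6 (148), Neat1 (68.1), Gas5 (56.1), Snhg12 (51.4), Snhg5 (51.0) and Snhg8 (30.9) to Malat1 (11.4 FPKM), as means. Of these neighbours only Snhg12 and Snhg5 had overlapping values. Under the WT label it ran from Snhg3 (448 FPKM) through Snhg1 (171), Snhg6 (89.8), Snhg12 (51.5), Snhg5 (43.5), Gas5 (41.6), Snhg8 (28.9) and Neat1 (19.6) to Malat1 (8.94 FPKM), with no overlap between neighbours. Neat1 was thus above Gas5, Snhg12, Snhg5 and Snhg8 under the KO label and below all of them under the WT label. Among genes outside the 9, Smndc1, Dars and Pebp1 had profiles closest to the mean profile of the hosts over the 4 libraries, at Euclidean distances of 0.0015, 0.0060 and 0.0067 on the centred log2(FPKM + 1) scale. Their own changes were 0.11 each (log2), while the single hosts ranged from -1.09 to 0.71.

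The annotation places 27 snoRNAs inside the 7 hosts on the same strand, and 8 of them are listed in the files. Snord47, Snord87, Snora61 and Snord99 were listed at 0 in all 4 libraries, and Snora24 was at 0 except for 2.05 FPKM in WT replicate 2. Short RNAs of this kind are poorly captured by a poly(A) kit and receive unstable FPKM values. Snora16a had 63.0 and 18.9 FPKM under the KO label, against 56.2 and 73.4 FPKM under the WT label. The other Snhg12 snoRNA above 0, Snora44, had 47.2 and 0 FPKM under the KO label, against 31.6 and 82.4 FPKM under the WT label. Neither passed the test (adjusted p = 0.229 and 0.227, limma), and the pair labelled KO differed widely in both genes.

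Snord22, in Snhg1, had the highest values of these snoRNAs. It had 561 FPKM in both libraries labelled KO, against 334 and 245 FPKM in those labelled WT. The log2 change was 0.97 ± 0.14 (SE, adjusted p = 0.00432, limma), and the call was lost with robust moderation of variances (adjusted p = 0.0605). The Snord22 to Snhg1 ratio averaged 2.43 in the libraries labelled KO, against 1.69 in those labelled WT. Its sequence is shown because it lies within an exon of 3 of the 18 annotated Snhg1 transcripts, so that reads of the host and of the snoRNA cannot be told apart; capitals mark the D box CTGA, which starts at base 118 of 126 (GENCODE M21, GRCm38).
Snord22, chr19:8725866-8725991, plus strand: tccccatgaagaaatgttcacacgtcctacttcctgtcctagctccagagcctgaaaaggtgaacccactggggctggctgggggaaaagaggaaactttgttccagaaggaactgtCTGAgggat
In the same way, 24 of the 27 snoRNAs lie within an exon of at least 1 host transcript, the exceptions being Snord87 in Snhg6 and both snoRNAs of Snhg3.

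Snhg1 lies head to head with Slc3a2, the heavy chain of the CD98 amino acid transporter, which runs the other way. The 105 bases between the genes, with gene ends from GENCODE M21, are shown because both rose; capitals mark TTTATA, the reverse complement of TATAAA (RefSeq, build GRCm38.p6). The RefSeq promoter of Slc3a2 is at chr19:8713848-8714147, inside the GENCODE gene, so this stretch borders only the outermost annotated Slc3a2 start.
Slc3a2 to Snhg1, chr19:8723370-8723474, plus strand: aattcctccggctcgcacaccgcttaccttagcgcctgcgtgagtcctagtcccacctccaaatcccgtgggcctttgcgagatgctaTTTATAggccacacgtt
Slc3a2 had 138 and 142 FPKM in the libraries labelled KO, against 101 and 105 FPKM in those labelled WT. The log2 change was 0.44 ± 0.034 (SE, adjusted p = 0.000664, limma). The Slc3a2 to Snhg1 ratio lay between 0.573 and 0.630 in all 4 libraries, with the groups overlapping, at 0.614 and 0.596 under the KO label and 0.573 and 0.630 under the WT label. On the other side of Snhg1, Wdr74, a ribosome assembly factor, fell. It had 70.4 and 73.5 FPKM in the libraries labelled KO, against 109 and 108 FPKM in those labelled WT, with a log2 change of -0.59 ± 0.033 (SE, adjusted p = 0.000313, limma).

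The neighbours of the other genes that are named here did not pass the test or were below the filter. Rcc1, the exchange factor of the Ran GTPase, overlaps Snhg3 on the same strand, so the authors' counting could split reads between them. Rcc1 had 106 and 110 FPKM in the libraries labelled KO, against 113 and 115 FPKM in those labelled WT, and its log2 change of -0.08 ± 0.033 (SE) was not called (adjusted p = 0.0898, limma). The Snhg3 to Rcc1 ratio was 2.00 and 1.90 under the KO label, against 3.94 and 3.92 under the WT label. Trnau1ap, beside both Snhg3 and Snhg12, and Phactr4, beyond Snhg3, each changed by -0.06 (log2, adjusted p = 0.394 and 0.328, limma). Frmd8, beside Neat1, changed by 0.07 (log2, adjusted p = 0.265, limma). Syncrip and Zfp949, beside Snhg5, changed by -0.05 and -0.03 (log2, adjusted p = 0.263 and 0.809, limma). Serpinc1, Sgk3, Tcf24, Prss12, Ndst3 and Rab42 were below the filter.

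**Figure D4:**
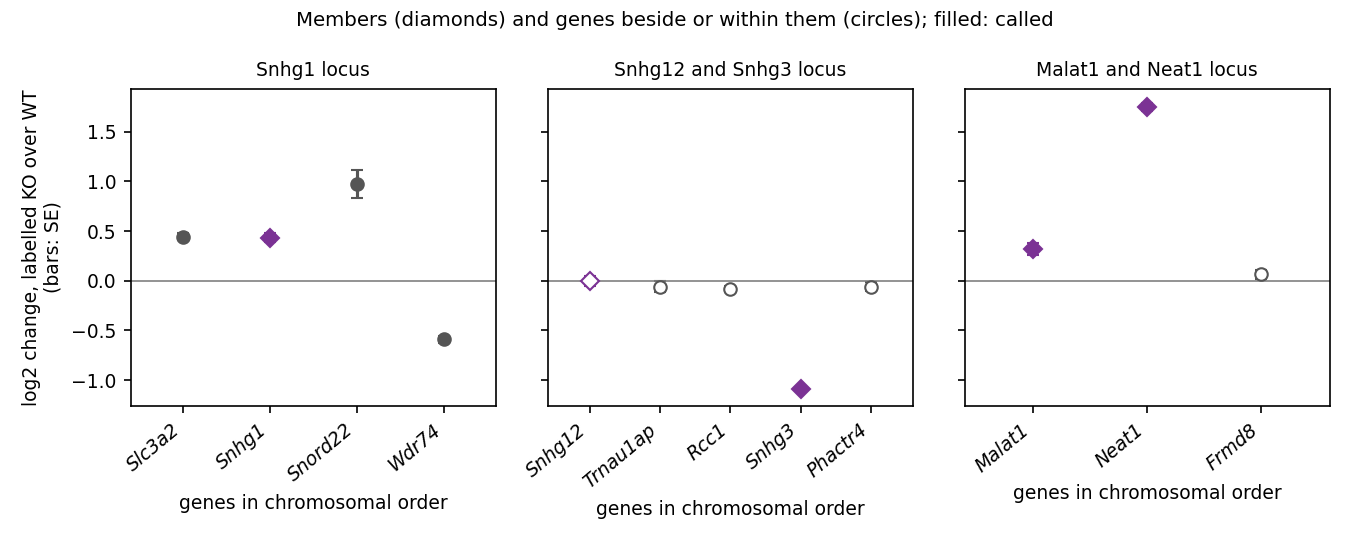
Log2 change, labelled KO over labelled WT, with its SE, for 5 of the 9 genes (diamonds) and genes beside or within them (circles) in chromosomal order, filled where called. Slc3a2 lies at 0.44 and Snhg1 at 0.43 while Wdr74 lies at -0.59, Rcc1 lies near 0 beside Snhg3, and Frmd8 lies near 0 beside Neat1 at 1.75.

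Other genes of the same pathways were taken from lists, whose counts stand beside 24.4% higher and 23.3% lower over all genes tested. Among 36 protein-coding snoRNA hosts, most of them ribosomal protein and translation genes, 24 (66.7%) rose and 4 (11.1%) fell, with a median log2 change of 0.14. Rpl12 (0.70), Rpl7a (0.50), Rpl5 (0.49) and Rpsa (0.47) rose most (adjusted p = 0.000167 to 0.000281, limma). With each library scaled to the same FPKM sum, 16 rose and 6 fell, beside 1939 higher and 3259 lower of all 10827 genes. Without 1 library, 18 to 21 rose, and 2 (without KO replicate 1), 1 (without KO replicate 2 or WT replicate 1) and 3 (without WT replicate 2) fell. Of 14 other noncoding hosts, 11 were listed and 9 tested, of which 1 rose and 1 fell (11.1% each), with a median of 0.14. These 14 are not every noncoding host. Outside them, 1110038B12Rik (0.68), 2410006H16Rik (0.25) and 2700038G22Rik (0.55), with named Snord genes inside them, were called higher. AA465934 (-0.68) was called lower, and 1810032O08Rik and Rab26os were not called. The host listed as 1500012F01Rik (Zfas1) rose, at 161 and 152 FPKM in the libraries labelled KO, against 125 and 123 FPKM in those labelled WT (0.33 log2, adjusted p = 0.00207, limma). Snhg4 fell, at 30.5 and 31.1 FPKM in the libraries labelled KO, against 44.7 and 49.3 FPKM in those labelled WT (-0.59 log2, adjusted p = 0.00120, limma). The median of this list turned to -0.01 without KO replicate 2 or WT replicate 1, and 1 to 3 rose and 1 to 3 fell with 1 library left out or at the same FPKM sum.

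Of 18 genes whose products build snoRNA particles, 4 (22.2%) rose and 5 (27.8%) fell, with a median log2 change of -0.08. These shares were near those over all genes tested (24.4% and 23.3%). Znhit6 (-0.54), Nhp2 (-0.38) and Pih1d1 (-0.30) fell, while Fbl, the methyltransferase of box C/D particles, rose by 0.27 (adjusted p = 0.000688 to 0.00216, limma). Nhp2 is a core protein of box H/ACA particles, and Znhit6 and Pih1d1 help assemble box C/D particles. At the same FPKM sum 2 rose and 9 fell, and without KO replicate 1 or WT replicate 2 only 2 rose. Of 18 nonsense-mediated decay factors, 3 (16.7%) rose and 4 (22.2%) fell, neither above the share over all genes tested, with a median of 0.05 that became -0.01 at the same FPKM sum. Upf1, the central helicase of the pathway, rose by 0.23 and Magoh, of the exon junction complex, by 0.34, while the decapping enzyme Dcp2 fell by 0.26 and Upf3a by 0.23 on the log2 scale (adjusted p = 0.00130 to 0.0115, limma). The Upf3a call was lost without WT replicate 2 (adjusted p = 0.0630), and 2 of the list fell there.

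The genes of proteins that assemble with Neat1 or share nuclear speckles with Malat1 had smaller log2 changes than Neat1. Of 20 paraspeckle proteins, 19 were tested, of which 5 (26.3%) rose and 2 (10.5%) fell, beside 24.4% and 23.3% of all genes tested, with a median log2 change of 0.02 that became -0.03 at the same FPKM sum, where 4 rose and 5 fell, and -0.0028 without WT replicate 2. Taf15 (0.31), Dazap1 (0.29) and Nudt21 (0.27) rose and Hnrnpa1 fell (-0.28), with adjusted p = 0.00131 to 0.00601 (limma). The core proteins Sfpq, Nono and Pspc1, on which paraspeckles are built, had log2 changes of 0.06, 0.10 and -0.02 and were not called. With any 1 library left out, 1 of the list fell. Of 15 nuclear speckle proteins, 9 rose and 6 were not called (median 0.10), beside 24.4% higher over all genes tested. Rnps1 rose by 0.18, Srsf2 by 0.16, Srsf1 by 0.15 and Pnn by 0.13 on the log2 scale (adjusted p = 0.00752 to 0.0320, limma). At the same FPKM sum 1 rose, and without KO replicate 1, KO replicate 2, WT replicate 1 or WT replicate 2 the number that rose was 2, 4, 4 and 1. Rnps1 alone of these 4 was called in every alternative.

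Of 12 genes that process or bind the end of Malat1, 11 were tested, of which 3 (27.3%) rose and 2 (18.2%) fell, near the shares over all genes tested, with a median log2 change of -0.06. Elac2, the enzyme that trims tRNA 3′ ends and cuts mascRNA, fell, at 27.1 and 27.7 FPKM in the libraries labelled KO, against 40.5 and 38.6 FPKM in those labelled WT (-0.51 log2, adjusted p = 0.000799, limma). The RNase P subunits Rpp38 and Pop5 changed by 0.47 and -0.26, and Mettl16, which binds the Malat1 triple helix, by 0.22 (log2, adjusted p = 0.0154 to 0.0206, limma). Each of these 3 calls was lost without at least 1 library, Rpp38 without WT replicate 2 or KO replicate 2, Pop5 without KO replicate 1 and Mettl16 without WT replicate 2 or KO replicate 1 and at the same FPKM sum, where 1 of the list rose and 3 fell. In that list 2 rose without WT replicate 1 and fewer without WT replicate 2, KO replicate 1 or KO replicate 2, and the median became 0.0011 without KO replicate 1. Of 21 other lncRNAs, 9 were tested, of which 2 (22.2%) rose and 7 were not called (median 0.06). Without KO replicate 1 or WT replicate 2, 1 rose, with medians of -0.02 and 0.00035, and without KO replicate 2 or WT replicate 1, 3 and 2 rose, with medians of 0.14 and 0.13. The gene listed as 1700020I14Rik (Oip5os1) had 23.6 and 22.2 FPKM in the libraries labelled KO, against 15.9 and 15.5 FPKM in those labelled WT (0.52 log2, adjusted p = 0.00131, limma). The gene listed as 2900097C17Rik, a symbol that RefSeq gives as a synonym of both Norad and Bscl2, rose by 0.13, a call that was lost at the same FPKM sum and without WT replicate 2 or KO replicate 1.

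**Figure D5:**
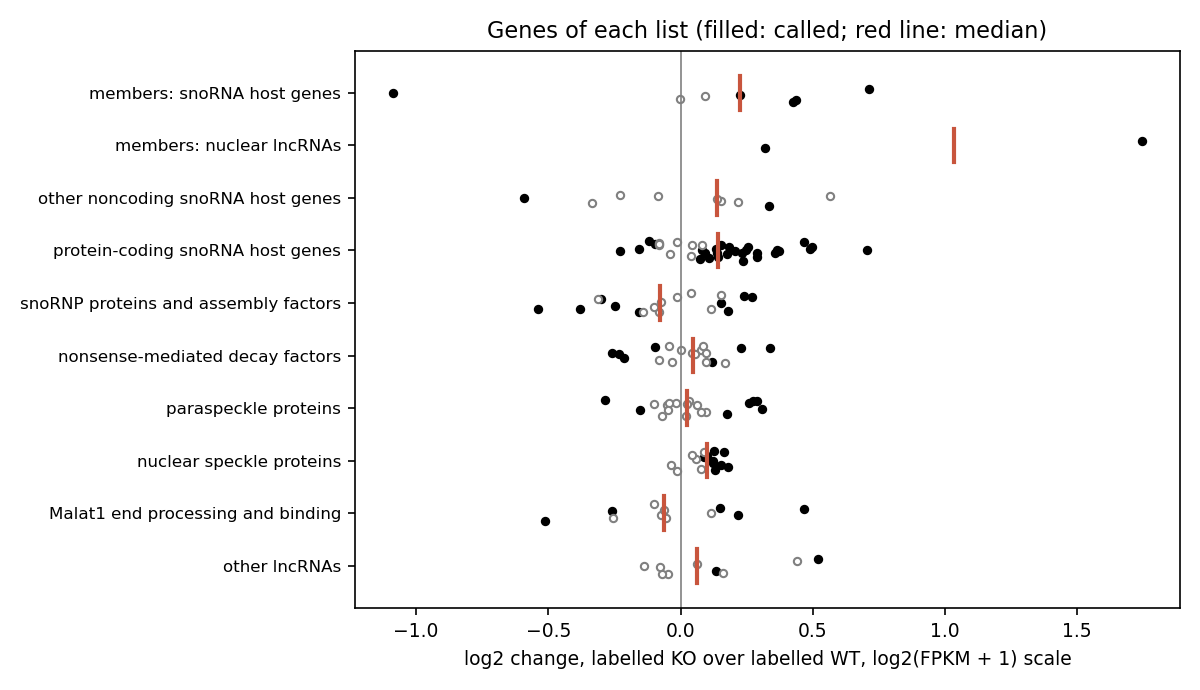
Log2 change, labelled KO over labelled WT, on the log2(FPKM + 1) scale, of every tested gene of each list, with filled points for called genes and a red line for the median of the list. The medians of the other lists lie between -0.08 and 0.14, while Neat1 at 1.75 and Snhg3 at -1.09 lie outside the range of all of them.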

How the data were processed

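Poly(A)-selected RNA was sequenced in 4 libraries. The authors deposited FPKM values for 24346 gene symbols per library. The submitters' processing notes name Cufflinks 2.2.1, TopHat2 2.0.13, SAMtools 0.1.19 and Bowtie2 2.2.3, with build mm10; the annotation and the strand setting are not given in the sources used here. FPKM divides by transcript length and library depth, so very abundant RNAs lower every other value of their library.

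Values were set to log2(FPKM + 1), which understates the change of low genes. Genes averaging 1 FPKM or more were fitted with limma 3.58.1 (R 4.3.3; lmFit, eBayes with trend, no block), two-sided, with Benjamini-Hochberg adjustment over all 10827 genes and a call at 0.05. With 2 libraries a group, an exact permutation test cannot go below 0.333 and was not used. Depth came from low values, with the depth ratio of each library to WT replicate 1 set at their highest peak. At that peak, 90.8% to 91.9% of low genes differed by a ratio of small whole numbers (none above 6, tolerance 1%). Over all depth ratios tried, the median share was 1.58% to 1.91%. Fragment numbers came from a second search over depth and transcript length. At its best setting, 72.6% of 849 values lay within 0.05 of a whole number. Positions came from GENCODE M21. Shared sequence (at least 95% over 200 bases) was sought with blastn 2.17.0, and Python 3.11.15 (numpy 2.4.6, pandas 2.3.3, matplotlib 3.10.9) did the rest.

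The genes and lists were chosen with earlier results of these data known. Named were the 9 genes, their snoRNAs and nearest listed protein-coding neighbours (some of which are not reported here), Arid5a, and up to 4 called genes of each list with the largest change; overlapping genes and the core paraspeckle proteins were named after their values were seen. Alternatives covered pseudocount, filter, scaling, variance moderation, the replicate block and leaving out each library.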

Additional observations from a re-analysis of the deposited data

How the results depend on the processing

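Over 14 alternatives for each of the 9 genes, 121 of 126 results kept their direction and their side of the threshold. The exceptions were Malat1 without WT replicate 2 (0.27, adjusted p = 0.0532, limma) and Snhg12, whose log2 change near 0 turned to 0.0050 at the same median, 0.0064 at the same upper quartile, 0.061 without WT replicate 1 and 0.030 without KO replicate 1 (range -0.064 to 0.061 with 1 library left out). The counts of 6 higher and 1 lower held except without WT replicate 2, where 5 were higher. The median log2 change of 0.32 was 0.26 at the same FPKM sum, 0.25 at the same sum after removing microRNA and snoRNA symbols (an alternative chosen after seeing the data), and 0.27 to 0.37 with 1 library left out. The log2 ratio of the host sum, -0.17, was -0.23 and -0.24 under those scalings. Over all genes, 3377 to 4109 were called with 1 library left out, against 5159 with all; without WT replicate 2 it was 3377, with fewer samples in the fit. At the same FPKM sum 1939 were higher and 3259 lower (37.3% higher), against 2641 and 2518 (51.2% higher), and the median of all genes moved to -0.055.

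With the replicate number as a block, 4673 genes were called, and 6 of the 9 genes were higher and 1 lower as without it. Deviations of same-numbered libraries correlated at 0.138 over genes; with 2 pairs, whether the numbers mark anything shared cannot be told.

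The 2 libraries a label limit precision, and estimated fragments depend on the transcript: Malat1 had 31 to 800 in KO replicate 1.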

Other observations

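The class of snoRNA that a host carries was set beside its change after the values were seen, with no test. Among the 7 hosts studied, the 4 with named Snord genes alone had a median log2 change of 0.43 and all rose, while the 2 with Snora genes alone had 0.09 and -1.09. Other hosts that could be classed did not repeat this order. Only genes with named Snord or Snora genes inside them were classed, and many mouse snoRNAs carry other symbols. Hosts left out for this reason include 1500012F01Rik (Zfas1, 0.33 log2, called higher) and Snhg4 (-0.59 log2, called lower). Of 33 tested protein-coding genes with Snord genes alone inside them on the same strand, 19 rose and 4 fell (median 0.10), and of 22 with Snora genes alone, 14 rose and 3 fell (median 0.19). Of 7 other noncoding hosts with Snord genes alone, 3 rose and 1 fell (median -0.04). Of these 7, only Snhg18 is in the list of other noncoding hosts above. Snhg9 and Dancr, with Snora genes alone, had log2 changes of -0.34 and 0.14 that were not called by limma. Cct6a, with Snora genes alone, has a noncoding type in GENCODE M21 and is left out of the 22; it is counted among the 36 protein-coding hosts of the report, and its change of 0.04 was not called.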
